A study of Mus musculus with 31 samples.

Results

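Immediate early genes are switched on within minutes when a cell meets serum, growth factors or stress, without new protein synthesis. The best known of them, the Fos and Jun families, encode the transcription factor (TF) AP-1. The 10 genes described here are immediate early genes that do not encode AP-1: Egr1, Egr2 and Egr3, which encode zinc finger TFs of the early growth response family; Nr4a1, Nr4a2 and Nr4a3, which encode orphan nuclear receptors; Dusp1, a phosphatase that switches off MAP kinases; Btg2, an antiproliferative partner of the CCR4-NOT deadenylase; and the small proteins encoded by Ier2 and Ier3. They were chosen by name from 21938 protein-coding genes, and all 10 were found in the annotation. For each, all ATAC-seq peaks within 1 kb of any annotated transcription start site (TSS), in the gene body and within 25 kb of the gene were collected, which gave 65 of the 63456 peaks in the list.

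The peaks come from 1 ATAC-seq library of parental NIH-3T3 cells, an established line of mouse embryonic fibroblasts without any added TF. In ATAC-seq the Tn5 transposase inserts sequencing adapters where DNA is free of nucleosomes, here in nuclei of 50000 cells with 0.5 µM Tn5 and 12 cycles of PCR. For this sample the labels name no doxycycline, whereas the ATAC-seq methods give 500 ng/ml for 48 h without excepting it, and the cells grew in medium with serum. The other 30 samples of the series, which overexpress one of 13 TFs or the rtTA3G activator alone, were not analysed here. With 1 library there was no replicate, so no test was made and every value describes this library.

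Transcription of immediate early genes is known to run through DNA elements, several of which are occupied before the stimulus arrives. Serum response factor (SRF) binds the CArG box, often beside a site for an ETS-domain partner of the ternary complex factor family, and together these receive the ERK MAP kinase signal. The cAMP response element (CRE) and its shorter core bind CREB and related factors. Promoters of this class are therefore often open in resting cells, and accessibility is not a measure of transcription.

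The sequences shown here lie at the promoters and at some of the body and flanking peaks. They are given 5′ to 3′ on the strand of the gene, from GRCm38.p6, the same build as mm10. Capitals mark the motifs named for each set, and all motifs were searched on both strands. The first set shows the CArG boxes of Egr2 with the ETS cores (CCGGAA) and CRE cores (TGACG) around them, in the 50 bases either side of its promoter summit and in the 120 bases before the Egr2 TSS.
Egr2 promoter summit, chr10:67537430-67537530, plus strand, CArG box and ETS cores: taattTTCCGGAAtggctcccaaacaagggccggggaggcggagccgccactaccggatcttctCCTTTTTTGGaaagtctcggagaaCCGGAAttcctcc
Egr2 upstream of the TSS, chr10:67537749-67537868, plus strand, CArG box and CRE cores: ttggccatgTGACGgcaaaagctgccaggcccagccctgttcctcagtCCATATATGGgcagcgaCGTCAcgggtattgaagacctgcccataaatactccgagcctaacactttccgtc

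The second set shows a whole CRE (TGACGTCA) at Ier2, Btg2 and the principal TSS of Dusp1, each in the bases just before the TSS. The GC box (GGGCGG), to which Sp1 and related factors bind, is also in capitals for Btg2.
Ier2, chr8:84662853-84662952, minus strand, CRE: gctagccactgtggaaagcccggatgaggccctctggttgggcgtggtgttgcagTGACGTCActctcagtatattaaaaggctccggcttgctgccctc
Btg2, chr1:134079121-134079370, minus strand, CRE and GC boxes: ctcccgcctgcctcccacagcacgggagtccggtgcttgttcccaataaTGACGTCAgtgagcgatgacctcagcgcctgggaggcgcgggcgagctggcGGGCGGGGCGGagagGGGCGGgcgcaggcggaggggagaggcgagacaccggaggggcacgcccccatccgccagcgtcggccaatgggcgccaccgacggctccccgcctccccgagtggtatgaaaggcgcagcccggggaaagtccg
Dusp1 principal TSS, chr17:26508520-26508669, minus strand, CRE: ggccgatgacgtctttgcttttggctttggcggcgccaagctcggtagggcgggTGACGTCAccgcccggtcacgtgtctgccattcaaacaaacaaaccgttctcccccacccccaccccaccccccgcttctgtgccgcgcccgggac

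The third set shows the Nr4a genes, whose promoters carry several CRE cores, and Ier3, whose promoter carries a kappaB site, the element bound by NF-kappaB, overlapping a GC box.
Nr4a1 outer TSS, chr15:101254019-101254268, plus strand, CRE cores, ETS cores and GC boxes: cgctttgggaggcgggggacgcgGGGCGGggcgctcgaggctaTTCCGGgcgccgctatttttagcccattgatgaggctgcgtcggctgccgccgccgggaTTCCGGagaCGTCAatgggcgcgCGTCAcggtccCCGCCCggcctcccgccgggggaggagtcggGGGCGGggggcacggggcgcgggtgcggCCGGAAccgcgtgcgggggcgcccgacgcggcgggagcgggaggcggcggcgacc
Nr4a1 inner TSS, chr15:101266696-101266845, plus strand, CRE cores and GC boxes: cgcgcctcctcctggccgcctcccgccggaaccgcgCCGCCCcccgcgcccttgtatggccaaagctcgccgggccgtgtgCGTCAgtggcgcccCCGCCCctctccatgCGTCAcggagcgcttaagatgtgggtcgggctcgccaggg
Nr4a2 outer TSS, chr2:57124004-57124213, minus strand, CRE cores and GC boxes: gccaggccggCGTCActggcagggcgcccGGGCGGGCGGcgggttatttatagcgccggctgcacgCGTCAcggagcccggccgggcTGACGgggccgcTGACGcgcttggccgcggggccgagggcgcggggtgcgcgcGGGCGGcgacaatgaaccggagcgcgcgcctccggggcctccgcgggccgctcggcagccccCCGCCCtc
Nr4a3, chr4:48045053-48045152, plus strand, CRE cores: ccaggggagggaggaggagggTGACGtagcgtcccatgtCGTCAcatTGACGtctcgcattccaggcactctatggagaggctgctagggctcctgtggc
Ier3, chr17:35821584-35821683, plus strand, GC box and kappaB site: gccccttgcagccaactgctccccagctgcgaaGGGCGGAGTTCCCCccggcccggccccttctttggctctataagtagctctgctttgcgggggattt

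All 10 genes had a promoter peak, that is a peak within 1 kb of at least 1 of their TSSs. Of all protein-coding genes, 53.7% had one (11788 of 21938). A TSS lay inside a peak for 9 of the 10 genes, against 48.7% of all protein-coding genes and 90.6% of those with a promoter peak. The exception was Egr3, whose only promoter peak ended 203 bp upstream of its outermost TSS. Ier2, Nr4a1, Nr4a2 and Dusp1 had more than 1 promoter peak, which is 4 of 10 against 13.0% of all protein-coding genes and 24.1% of those with a promoter peak. The 10 genes had a median of 3.5 annotated TSSs, against 3.0 over all protein-coding genes and 5.0 over those with a promoter peak.

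The strength of a peak is given here in several ways. The fold enrichment is the number of fragments at the summit divided by the number expected from the surroundings, each with 1 added, and both numbers were solved from the deposited values. The interval given with a fold is the exact Poisson 95% interval of the summit fragments, which covers counting error only. Where a gene had several promoter peaks, the one with the highest fold enrichment is called the leading peak. The leading peaks of the 10 genes spanned a fold enrichment of 4.35 to 13.5 with a median of 7.51, which lay below the median of 9.86 over the 11788 protein-coding genes with a promoter peak. By the fragments at the summit the order turned, with a median of 79 for the 10 genes and 64 for the open coding promoters. The expected number of fragments was 8.19 at the median of the 10 genes and 5.51 over the open coding promoters, and 9 of the 10 genes lay above the latter. The expected number, with 1 added, is the denominator of the fold enrichment. Of the 10 genes, 8, all but Nr4a2 and Dusp1, ranked lower by fold than by fragments. The share of open coding promoters that do so was not counted, so this number has no background beside it. The median percentile of the 10 genes among open coding promoters was 27.1 by fold enrichment, 49.0 by −log10 q and 65.6 by summit fragments. With all 10 genes at their lower or all at their upper interval limits, the median fold was 5.96 or 9.33. The median percentile was then 15.2 or 44.6. Moving all genes in the same direction at once gives a wider range than the counting error of the median itself.

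**Figure D1:**
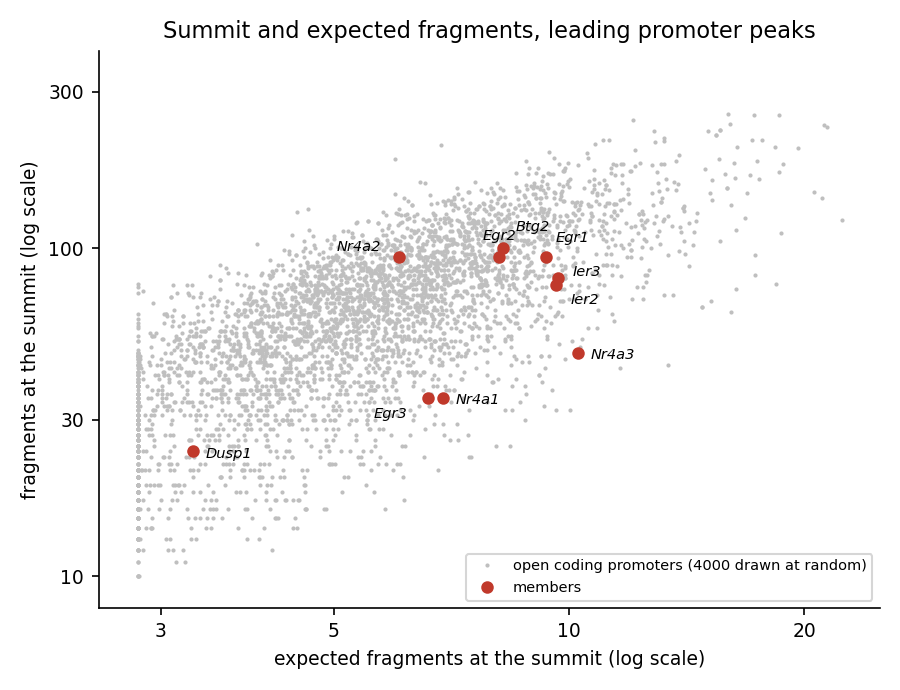
Fragments at the summit against the expected number of fragments, both on log axes, for the leading promoter peaks of the 10 genes (red, named) and for 4000 open coding promoters drawn at random (grey). Of the 10 genes, 9 lie above the median expected number of 5.51, with Dusp1 at 3.30, and Egr3, Nr4a1 and Nr4a3 lie toward the lower edge of the grey cloud for their expected number.

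In order of fold enrichment the leading peaks ran from Nr4a2 through Btg2, Egr2, Egr1, Ier3, Ier2, Dusp1, Egr3 and Nr4a1 to Nr4a3. The intervals of neighbours in this order overlapped in every case, and those of 18 of the 45 possible pairs did not overlap. Nr4a2 alone lay above the upper quartile of open coding promoters by fold, and 7 of the 10 genes lay below their median.

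**Figure D2:**
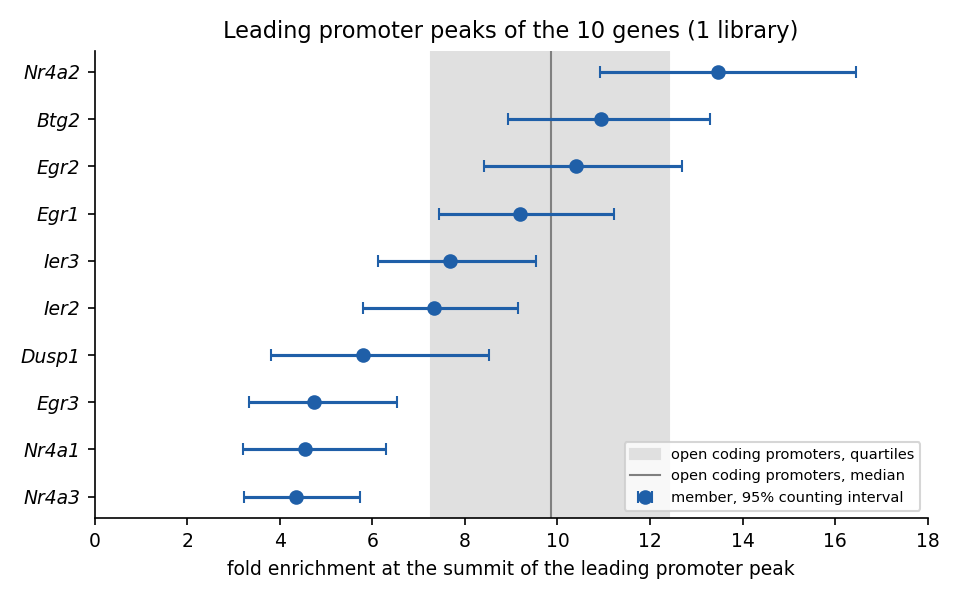
Fold enrichment at the summit of the leading promoter peak of each gene (points) with the exact Poisson 95% interval of the summit fragments (bars). The grey band spans the quartiles of open coding promoters, 7.27 to 12.4, and the line marks their median of 9.86. Dusp1, Egr3, Nr4a1 and Nr4a3 lie below the band and Nr4a2 lies above it.

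The Egr genes encode TFs that bind GC-rich sites and relay growth signals to slower target genes. Egr1 had 1 promoter peak of 1464 bp with a fold enrichment of 9.19 (95% interval 7.45 to 11.2), a −log10 q of 56.4 and 94 fragments at the summit. This peak was the widest of the 10 leading peaks and stood at the 94.9th percentile of open coding promoters by width. It covered the inner of the 2 annotated Egr1 TSSs, at chr18:34861207, with its summit at −348 bp, and began 66 bp downstream of the outer TSS at chr18:34859823. The summit lay in an Egr1 exon, 1036 bp downstream of that outer TSS. Egr2, which also acts in myelination and hindbrain patterning, had 1 promoter peak of 761 bp with a fold enrichment of 10.4 (8.42 to 12.7) and a −log10 q of 61.4. Its summit, under 94 fragments, lay at −389 bp from the principal TSS, in an intron of transcripts that start further upstream. Those upstream starts, at chr10:67535475 and chr10:67535583, were 1736 and 1628 bp from the peak. Egr3 had the weakest and narrowest promoter peak of the family, 234 bp with a fold enrichment of 4.74 (3.34 to 6.54), a −log10 q of 12.3 and 35 fragments. Its interval did not overlap that of Egr1 or Egr2. The Egr3 summit lay at −356 bp, so in all 3 Egr genes the leading summit lay before the nearest TSS rather than at it. A leading summit more than 300 bp from the nearest TSS was found in these 3 genes and Ier2, and in 15.0% of open coding promoters.

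The same stretch held the SRF element in all 3 Egr genes. Within 50 bases of the leading summit, on either side, a CArG box was found in Egr1, Egr2 and Egr3 and in none of the other 7 genes, against 0.348% of the 11788 open coding promoters (41 promoters). In Egr1 there were 2 CArG boxes there, starting at positions −369 and −353 from the TSS, and the centre of the latter lay −0.5 bp from the summit. In Egr2 the box shown above started at −375 and its centre lay 18.5 bp downstream of the summit. An ETS core stood in the same stretch in Egr1 and Egr2 and not in Egr3. ETS cores were found at the leading summits of 4 of the 10 genes (Egr1, Egr2, Ier2 and Nr4a1) and of 16.0% of open coding promoters, whereas near the TSS only Nr4a1 had one, against 29.9% of open coding promoters. The leading summit of Ier2 lies at −1248 bp, in a peak near the noncoding gene Gm26664 that does not cover the Ier2 TSS. A window from 250 bases before to 50 after the TSS held none of the CArG boxes found at the Egr summits. It held other CArG boxes, starting at −105 and −83 in Egr1 and at −72 in Egr2, and none in the other 8 genes, against 1.39% of all coding promoters and 1.19% of the open ones. These matches are descriptions of the sequence, and binding of SRF was not measured in this library.

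**Figure D3:**
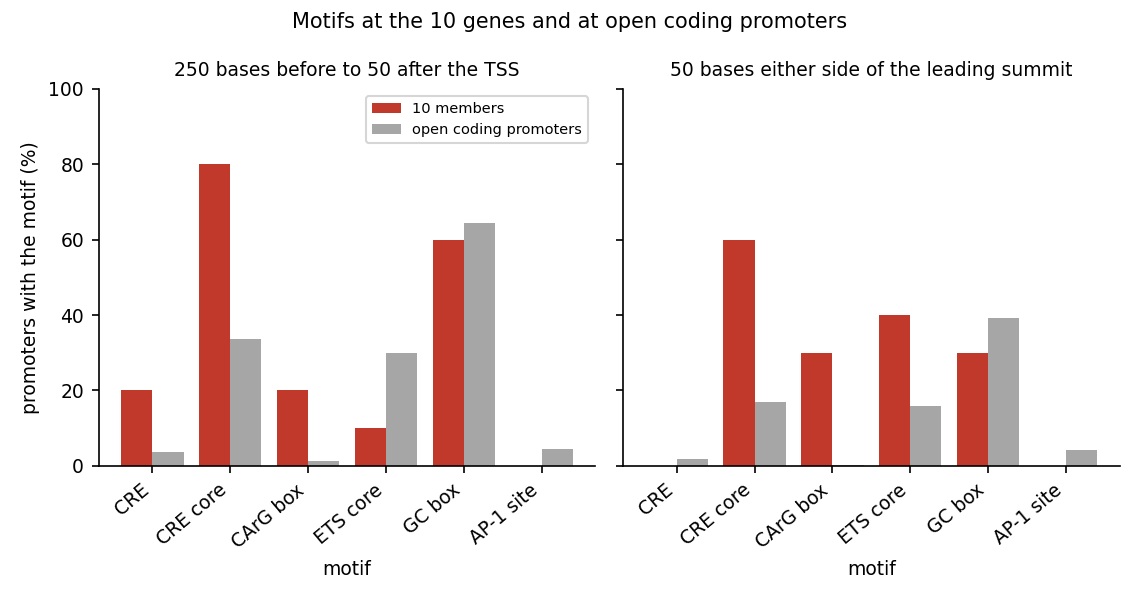
Share of promoters with each motif, in % of the 10 genes (red) and of open coding promoters (grey), for 250 bases before to 50 after the TSS at the leading peak (left) and for 50 bases either side of the leading summit (right). CRE cores stand in 8 of 10 genes near the TSS, and CArG boxes in 3 of 10 at the summit against 0.348% of open coding promoters. A whole CRE is also counted as a CRE core.

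The Nr4a genes encode nuclear receptors that act without a known physiological ligand and bind DNA as monomers or dimers. Their leading folds ran from the lowest to the highest of the 10 genes. Nr4a2, needed for dopaminergic neurons, had a promoter peak at each of its principal TSSs. The one at the outer TSS (chr2:57124003) was 1167 bp wide with a fold enrichment of 13.5 (10.9 to 16.4), a −log10 q of 72.5 and 94 fragments, the highest fold of the 10 genes. The one at the inner TSS (chr2:57115038) was 772 bp wide with a fold enrichment of 7.26 (5.78 to 9.0) and 81 fragments. Another peak between them, in the gene body, reached 8.23 (6.63 to 10.1) with 90 fragments. The fragments at these 3 summits had overlapping intervals, while the expected number was 6.06 at the outer TSS and 10.3 and 10.1 at the others.

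Nr4a1, also called Nur77 and induced by T cell receptor signals, had a weak peak at each of its principal TSSs. The peak at the outer TSS (chr15:101254269) was 632 bp wide with a fold enrichment of 4.55 (3.21 to 6.29) and 35 fragments. At the inner TSS (chr15:101266846), which 2 annotated transcripts use, the peak was only 144 bp wide with a fold enrichment of 2.85 (1.81 to 4.29), a −log10 q of 3.45 and 21 fragments. It was the weakest of the 15 promoter peaks. Nr4a3 had the lowest leading fold of the 10 genes, 4.35 (3.23 to 5.74), in a peak of 992 bp with 48 fragments and a −log10 q of 15.0. A stronger peak stood next to it, starting 1456 bp upstream of the gene, with a fold enrichment of 8.54 (6.92 to 10.4) and 94 fragments. The expected number of fragments was 10.3 at the Nr4a3 promoter, the highest of the 10 leading peaks.

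CRE cores were common to the Nr4a promoters. Near the TSS at the leading peak a CRE core was found in 8 of the 10 genes, all but Egr3 and Ier3, against 24.3% of all coding promoters and 33.7% of the open ones. Nr4a2 and Nr4a3 each had 4 of them and Nr4a1 had 2. At the weak inner promoter of Nr4a1 there were 4 CRE cores, and at the inner promoter of Nr4a2 a whole CRE. At the leading summits, CRE cores stood in 6 of 10 genes and in 16.9% of open coding promoters. The 6 genes include Ier2 and Dusp1, whose leading peaks lie near a TSS of Gm26664 and of Ergic1, respectively. The NBRE (AAAGGTCA), the site that NR4A monomers bind, was found near the TSS of none of the 10 genes and of 1.14% of all coding promoters and 0.797% of the open ones.

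Dusp1 dephosphorylates p38, JNK and ERK and ends the signal that induced it. Its annotation includes transcripts that start more than 50 kb upstream of the others, so that the gene spans 56539 bp, and its peaks have to be read against that. The leading promoter peak lay at such a distant start (chr17:26561499), with a fold enrichment of 5.81 (3.81 to 8.53), a width of 434 bp and 24 fragments. It was also within 1 kb of a TSS of Ergic1, a gene of the secretory pathway, and which gene it belongs to cannot be told apart. At the principal TSS (chr17:26508519) the peak was wider, 984 bp, and had a fold enrichment of 4.52 (3.10 to 6.39), a −log10 q of 10.1 and 30 fragments. The CRE shown above lay under it. A small additional peak of 236 bp had its summit at −1051 bp, with a fold enrichment of 3.63 (2.36 to 5.37) and 23 fragments.

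Btg2, also a p53 target, had the most fragments of the leading peaks, 100, in a peak of 676 bp with a fold enrichment of 10.9 (8.92 to 13.3), a −log10 q of 67.4 and a summit at −83 bp. Ier3, which is also induced by NF-kappaB and influences apoptosis, had a peak of 769 bp with a fold enrichment of 7.68 (6.12 to 9.53) and 81 fragments, and its summit lay 8 bp from the TSS. Ier2, a nuclear protein of the growth factor response, had 2 promoter peaks. The peak over its only TSS had a fold enrichment of 5.10 (3.84 to 6.64) and 53 fragments, with the summit 8 bp from the TSS. A stronger peak, with a fold enrichment of 7.33 (5.81 to 9.14) and 77 fragments, had its summit at −1248 bp and lay within 1 kb of the TSS of the noncoding gene Gm26664. The intervals of the 2 Ier2 peaks overlapped.

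A whole CRE stood near the TSS at the leading peak in Ier2 and Btg2, which is 2 of 10 genes against 2.54% of all coding promoters and 3.65% of the open ones. With the principal TSS in place of the distant start, Dusp1 had one too. None of the leading summits had a whole CRE within 50 bases, where 1.87% of open coding promoters had one. GC boxes were found near the TSS of 6 of 10 genes, against 46.0% of all coding promoters and 64.5% of the open ones. The kappaB site was found in Ier3 alone, against 4.93% of all and 4.80% of open coding promoters. At the inner TSS of Nr4a1, which is not at its leading peak, there was another. The exact string TATAAA of the TATA box was found in Nr4a2 alone, against 12.1% of all and 6.35% of open coding promoters. It lay at −164 to −159 on the opposite strand, and variants of the string were not searched. The CpG content differed among the 10 genes. The median ratio of observed to expected CpG was 0.857 for the 10 genes, 0.779 for open coding promoters and 0.571 for all coding promoters, and the median GC content was 67.5%, 61.0% and 56.3%. The CpG ratio ran from 0.579 in Ier3 to 1.12 in Nr4a1, and Egr2, Egr3, Ier2 and Ier3 lay below the median of open coding promoters. Within the 10 genes, GC content ran from 53.3% in Ier2 to 81.7% in Nr4a2.

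**Figure D4:**
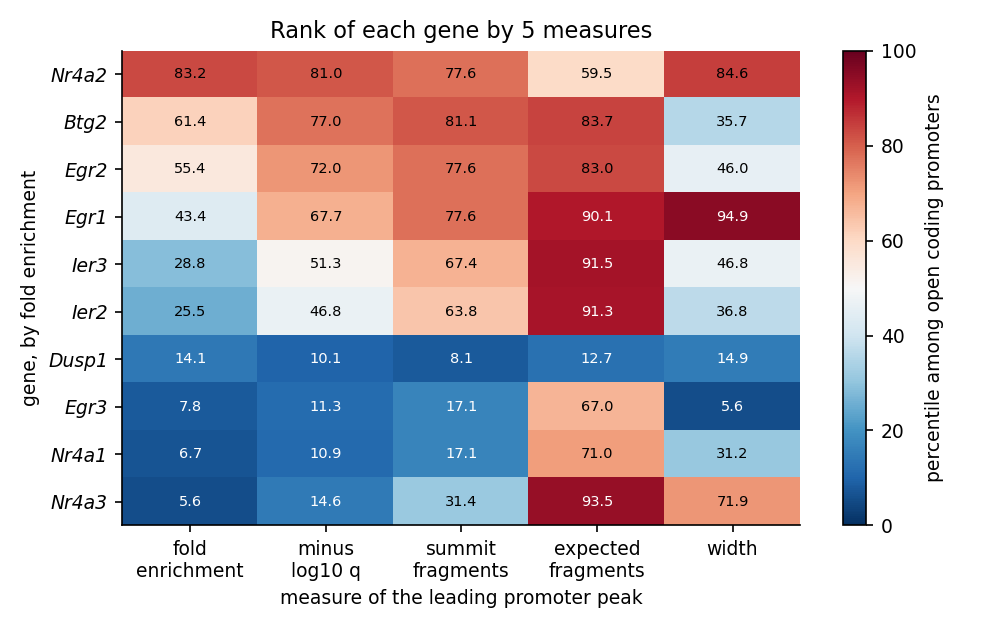
Percentile of the leading promoter peak of each gene (rows, by fold enrichment) among open coding promoters, by 5 measures (columns), on a colour scale from 0 (blue) to 100 (red). Nr4a3 stands at 5.6 by fold enrichment but 93.5 by expected fragments, whereas Dusp1 is below 15 by all 5 measures. The Dusp1 row is its leading peak, at the distant start and near a TSS of Ergic1. The peak at the principal Dusp1 TSS was not ranked.

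Accessible sites were not restricted to the promoters. Of the 65 peaks, 15 were promoter peaks, 7 lay in the gene body, 23 upstream and 20 downstream. The median was 6.5 peaks per gene, against 3.0 over all protein-coding genes and 5.0 over those with a promoter peak. Btg2 had 10 peaks, Egr3, Ier3 and Dusp1 had 9 each, and Egr1, Nr4a2 and Nr4a3 had 3 each. Nr4a2 had no peak in either 25-kb flank. At 8 of the 10 genes, all but Egr2 and Nr4a2, a body or flanking peak exceeded the leading promoter peak in fold enrichment, as was so for 50.9% of the open coding genes. Another protein-coding gene had a TSS within 1 kb of 9 of the 50 body and flanking peaks, namely Ado, Bin3, Cacna1a, Nacc1 and Trmt1 together, Flot1, Tubb5 (2 peaks), Mdc1 and Atg101. With noncoding genes included the number was 14, and 36 lay more than 1 kb from any annotated TSS. A flanking peak is listed by its distance, and which gene it acts on was not measured.

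**Figure D5:**
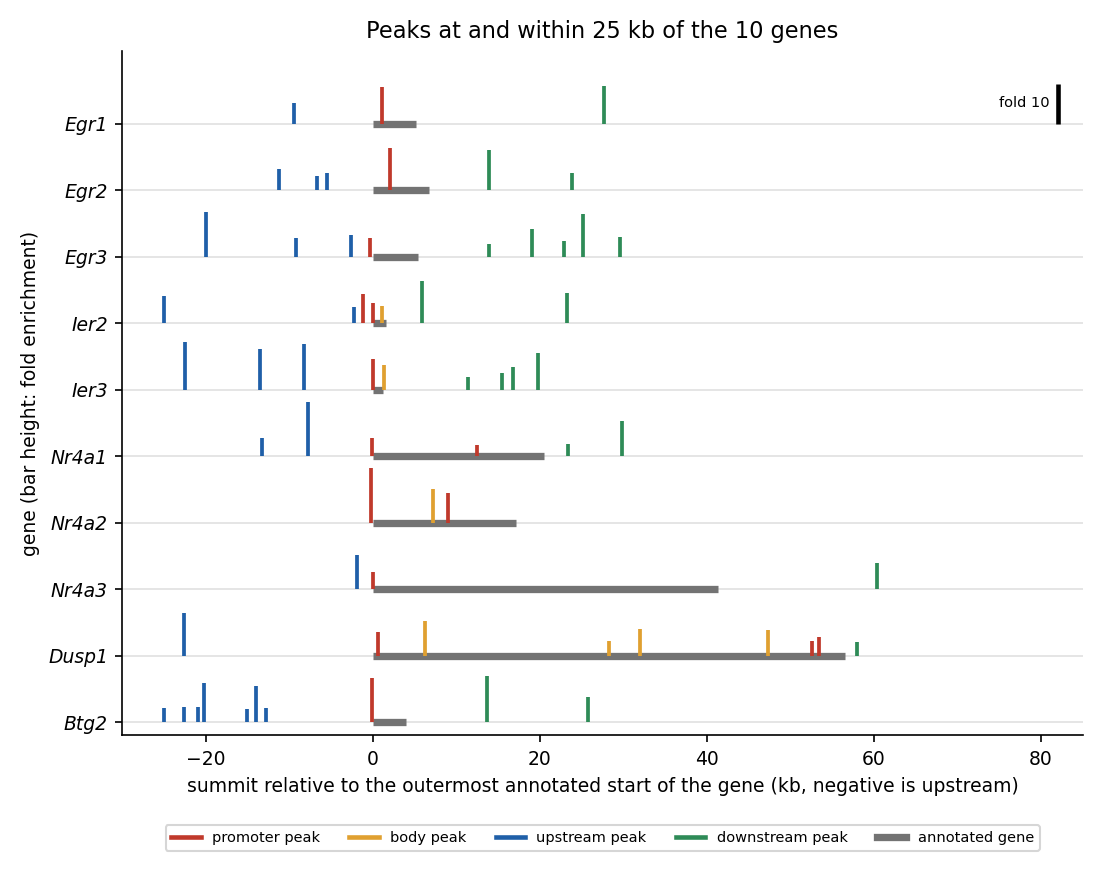
Summits of the 65 peaks by distance in kb from the outermost annotated start of each gene (negative is upstream), with the annotated gene as a grey bar and the height of each line showing fold enrichment (scale at the top right). Nr4a1 has its tallest line upstream of the gene, Btg2 a cluster of 7 upstream peaks, and Dusp1 its principal promoter at the far end of the annotated gene.

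The strongest of the 36 distal peaks stood upstream of Nr4a1, where both promoter peaks were weak. It started 7457 bp from the gene and had a fold enrichment of 13.4 (11.1 to 15.9), a −log10 q of 94.1 and 125 fragments, and its interval did not overlap those of the 2 promoter peaks. Ier3 had 3 upstream peaks, 7638, 13061 and 22342 bp from the gene, with fold enrichments of 11.2, 10.1 and 11.8 and with 111, 85 and 91 fragments. All 3 exceeded its promoter peak of 7.68, though only the interval of the farthest, 9.56 to 14.5, lay wholly above the interval of the promoter. Btg2 had a downstream peak of 11.5 (9.50 to 13.7) with 116 fragments, 9336 bp from the gene. Its 7 upstream peaks lay 12675 to 24842 bp away, and the highest of them, at 9.75 (8.17 to 11.5) with 133 fragments, was within 1 kb of the noncoding gene Gm38140. Around the weak Egr3 promoter, peaks of 11.2 (8.58 to 14.4) and 10.6 (8.24 to 13.5) lay 19900 bp upstream and 19452 bp downstream. The former lay in an intron of Pebp4 and within 1 kb of a TSS of the noncoding gene Gm33524, and the latter in an intron of Bin3. All 4 body peaks of Dusp1 lay in introns of its long transcripts, with fold enrichments from 3.59 to 8.60.

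The last set gives the 50 bases either side of 4 distal summits, with AP-1 sites (TGACTCA) in capitals for Dusp1, Ier3 and Btg2 and a GC box for Nr4a1, where no AP-1 site, CArG box, ETS core or CRE core was found. For Dusp1 and Ier3 the peak shown is not the strongest around the gene. The strongest, with fold enrichments of 10.4 and 11.8, had no AP-1 site within 50 bases of the summit.
Nr4a1 upstream peak, chr15:101246408-101246508, plus strand: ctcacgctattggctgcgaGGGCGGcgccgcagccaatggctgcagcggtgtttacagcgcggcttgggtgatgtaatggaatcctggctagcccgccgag
Dusp1 body peak, chr17:26514823-26514923, minus strand: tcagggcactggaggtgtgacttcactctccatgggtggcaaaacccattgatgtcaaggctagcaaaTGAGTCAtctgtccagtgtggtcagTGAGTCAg
Ier3 upstream peak, chr17:35813379-35813479, plus strand: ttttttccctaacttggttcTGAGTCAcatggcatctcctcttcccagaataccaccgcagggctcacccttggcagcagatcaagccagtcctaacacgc
Btg2 downstream peak, chr1:134065471-134065571, minus strand: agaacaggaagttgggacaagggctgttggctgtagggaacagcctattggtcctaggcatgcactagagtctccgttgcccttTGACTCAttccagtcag

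The share of peaks with an AP-1 site around these genes was close to that of the whole list. Of the 36 distal peaks, 10 had a site within 50 bases of the summit (27.8%), against 26.4% of all 47192 distal peaks, and over the whole peak 14 had one (38.9%) against 40.8%. None of the 15 promoter peaks held an AP-1 site anywhere in the interval, where 17.6% of all 16264 peaks within 1 kb of any annotated TSS did. Those 16264 include peaks near noncoding genes, so the 2 sets are not of the same kind. The Dusp1 body peak had 2 sites at its summit, with a fold enrichment of 6.25 (4.16 to 9.04) and 26 fragments.

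Promoter peaks were also common among genes of the same response and of the pathways upstream, against 53.7% of all protein-coding genes. The median leading fold over protein-coding genes with a promoter peak was 9.86. All 8 AP-1 genes had a promoter peak, with a median leading fold of 7.42 and a median of 79 fragments, close to the values of the 10 genes. Of 41 other immediate early genes, 39 had one, with a median fold of 8.10 and 76 fragments. The highest were Rhob at 12.7, Nfkbiz at 12.6 and Klf2 at 12.4, the lowest Npas4 at 3.80, Zfp36 at 4.47 and Csrnp1 at 4.88, and Dusp2 and Egr4 had none. Npas4 and Egr4 are known mostly from neurons, and Dusp2 from immune cells, but a link between cell type and these peaks was not tested. Among the paralogs of the 10 genes, 9 of 12 had a promoter peak, and Btg4, a gene of the oocyte, joined Dusp2 and Egr4 without one. The highest paralogs were Dusp6, Ier5 and Tob1, at 11.3, 11.3 and 11.0, and the lowest were Tob2 at 4.57, Ier5l at 6.90 and Dusp4 at 8.11.

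Of 23 regulators and partners, 22 had a promoter peak, against 53.7% of all protein-coding genes. Their median fold was 7.77, against 9.86 over protein-coding genes with a promoter peak. Creb1, which encodes the CRE-binding factor, stood highest at 15.8 with 197 fragments, followed by the kinases Map2k1 (MEK1) at 13.0 and Rps6ka5 (MSK1) at 12.4. Rxra, the partner of several nuclear receptors, was lowest at 2.52, with the ternary complex factor Elk3 at 3.77 and Rxrb at 5.13, and Rps6ka1 had no promoter peak. Srf itself had a fold of 7.05 with 77 fragments, and Nab2, a corepressor of EGR proteins, had 6.18 with 83.

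The cell type was checked with marker genes. All 12 fibroblast markers had a promoter peak, among them Fn1 at 10.5, Twist1 at 10.1 and Col1a2 at 7.79, and the lowest were Thy1 at 3.41, Col6a1 at 3.61 and Prrx1 at 3.65. Of 21 markers of epithelial, blood, endothelial, muscle and nerve cells, 6 had one (28.6%), against 53.7% of all protein-coding genes. The endothelial genes Cdh5 and Pecam1, at 12.8 and 8.40, were the strongest of these, while Kdr and Tie1 had none. The epithelial genes Grhl2 and Krt8 stood at 5.40 and 3.25 and the blood genes Spi1 and Cd68 at 3.22 and 2.89, while Cdh1, Krt18, Epcam, Esrp1, Ptprc and Cd3e had none. No promoter peak was found at Myod1, Myog or Ttn of muscle or at Rbfox3, Snap25, Syp or Tubb3 of neurons.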

How the data were processed

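One ATAC-seq peak list of parental NIH-3T3 cells was analysed. According to the methods and the submitters' processing notes, the authors aligned 75-nucleotide read pairs to mm10 with STAR 2.5.3a, kept unique pairs on the autosomes, X and Y, discarded duplicates (Picard) and used MACS2 2.1.1.20160309 on whole fragments for peak calling. No Tn5 shift is described. The authors deposited per peak a fold enrichment (the ratio of summit to expected pileup, each with 1 added), a −log10 p and −log10 q from a Poisson test, and a score derived from the −log10 q. The library's read number is not given in the sources used here.

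Summit and expected fragments were solved from fold and −log10 p. A whole number, within 0.02, resulted for 99.997% of the 63456 peaks, with a median of 29 fragments, a minimum of 10 and a background of 2.81. The solver was tested on simulated data. TSSs came from GENCODE M21 and sequences from GRCm38.p6. Promoter peaks took precedence over gene-body peaks, and these over flanking peaks. A percentile is the share of open coding promoters with a lower value. Genes were named by rule: all 10 genes, and from each other list those without a promoter peak and up to 3 with the highest and 3 with the lowest fold. Outside that rule, Srf and Nab2 were named after their values were seen. Col1a2, which the rule covers, was also named then. A listed blood marker and a promoter sequence are not reported here. The genes and lists were chosen with earlier results of these data known. Alternatives were other distances to the TSS, thresholds, transcripts, rank measures and motif windows. Principal transcripts alone and windows at the outermost principal TSS were added after the values were seen. Calculations ran in SciPy 1.17.1, pandas 2.3.3, NumPy 2.4.6, pysam 0.24.0, Python 3.11.15 and matplotlib 3.10.9.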

Additional observations from a re-analysis of the deposited data

How the results depend on the processing

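Of 35 values under alternative settings, 26 stayed within their limits and 9 moved. The limit for counts was a factor of 1.5. For the median fold and the median percentile it was 5.96 to 9.33 and 15.2 to 44.6, the values with all genes at their interval limits. These limits are wide, so a value within them can still differ visibly. The median percentile of the 10 genes rose from 27.1 by fold enrichment to 49.0 by −log10 q and 65.6 by summit fragments. The 65 peaks became 39 within 10 kb, 98 within 50 kb and 39 at a fold enrichment of at least 5. The flanking peaks near another gene's TSS rose from 9 to 14 with noncoding genes. The genes with a CRE fell from 2 to 0 at the leading summit. The genes with a CArG box went from 2 to 1 at the outermost principal TSS, a setting chosen after seeing the data, and to 4 from 1000 bases before to 100 after the TSS. A promoter peak was kept by 9 genes when it had to overlap a TSS and by 7 at a fold enrichment of at least 5, both counted as within the limit. Of protein-coding genes with a promoter peak, 90.6% had a TSS inside a peak. The share of them that keep a peak at a fold of at least 5 was not counted. Of their leading folds, 7.83% lay below that of Egr3 (4.74) and 14.1% below that of Dusp1 (5.81). The lowest summit in the list held 10 fragments, so weaker sites were not detectable at this depth. No paired analysis was possible because the parental line has a single library, and for the same reason no replicate could be left out.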
